A study of Penicillium oxalicum with 12 samples.

Results

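The *Podot1* deletion label was examined in cellulose medium, as the 3 libraries of *Penicillium oxalicum* labelled Δ*Podot1* against the 3 libraries of the wild type 114-2 (WT). These 6 libraries are all those grown in cellulose among the 12 of the series, and they were chosen by their labels. In Δ*Podot1* the coding region of *Podot1* was replaced by a hygromycin resistance marker in 114-2, and WT carries no marker. Mycelia of both strains were precultured in glucose, moved to medium with 1% cellulose and 1% wheat bran, and harvested after 24 h at 30 °C as 3 biological replicates. The remaining 6 libraries, 3 per strain, were grown in 2% glucose and are used here to place the cellulose libraries and to estimate the spread between replicates. The libraries are called labelled replicates 1, 2 and 3 below, because the reads of the deleted gene do not follow the label.

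*Podot1* (PDE_07484) encodes the Dot1 homologue of this fungus. Dot1 proteins methylate a lysine of histone H3 (H3K79) in the globular core of the nucleosome, without the SET domain that other histone lysine methyltransferases use, and in budding yeast the protein was found through its effect on silencing near telomeres. *P. oxalicum* is a soil and plant litter fungus that secretes cellulases, xylanases and amylases when it grows on plant polysaccharides. Their genes are repressed in glucose and induced by cellulose and by the sugars released from it.

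*Podot1* was read at 36.4, 28.8 and 28.2 FPKM (fragments per kilobase of gene, scaled by the number of mapped reads) in the WT cellulose libraries. The libraries labelled Δ*Podot1* held 33.4, 58.4 and 0 FPKM, from 341, 613 and 0 counts against 230 to 264 counts in WT. Labelled replicates 1 and 2 thus held *Podot1* at or above the WT level, and only labelled replicate 3 had no read of it, at least 106.7-fold lower than the WT mean (against a floor of 3 counts in that library). No difference between the labelled group and WT was detected (two-sided exact permutation test, p = 1, 3 against 3, smallest possible p = 0.1). In glucose the reads followed the label. WT held 31.7, 25.8 and 29.0 FPKM and the libraries labelled Δ*Podot1* 0, 0.10 and 0.19 FPKM (exact permutation test, p = 0.1, the smallest possible). The loci numbered next to it were read in all 6 cellulose libraries. PDE_07483 was at 64.2, 67.2 and 102 FPKM in WT and 27.3, 27.3 and 32.5 in the labelled libraries, and PDE_07485 was at 72.6, 70.4 and 115 against 31.2, 15.5 and 101. By these reads 1 of the 3 labelled libraries matched its label, so the results below are given for each library. In mycelium sampled whole, a lower level in each cell cannot be told apart from fewer cells that express the gene.

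**Figure D1:**
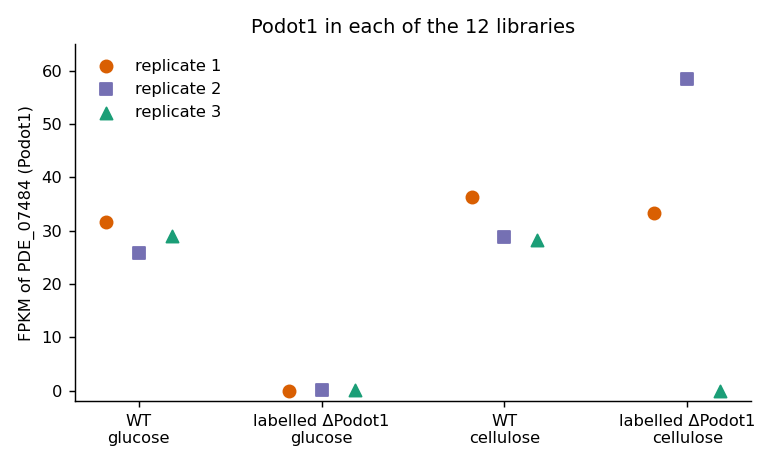
FPKM of *Podot1* (PDE_07484, y axis) in each of the 12 libraries, by strain label and medium (x axis), with 1 point per library and the marker giving the replicate number. The 3 glucose libraries labelled Δ*Podot1* sit at 0 to 0.19 FPKM, whereas in cellulose labelled replicates 1 and 2 sit at 33.4 and 58.4 FPKM and labelled replicate 3 at 0.

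The labelled libraries also differed in how they stood on cellulose. Between the WT groups, 1746 genes were called higher in cellulose than in glucose and 1446 lower, with called meaning an edgeR Benjamini-Hochberg adjusted p under 0.05 and at least a 2-fold change. Of the 1746 higher genes, 71.6% in labelled replicate 1 and 63.2% in labelled replicate 3 were nearer to the WT cellulose mean than to the WT glucose mean. In labelled replicate 2 this was 27.4%, against 10.2% to 19.7% in the glucose libraries labelled Δ*Podot1*. The WT cellulose libraries themselves were at 97.6% to 99.3%. They define both the genes and the mean, so their share was high by construction. Of the 1446 lower genes, 60.7%, 13.1% and 57.0% were nearer to WT cellulose in labelled replicates 1, 2 and 3. Labelled replicate 2, which held the most *Podot1*, thus stood closer to glucose, and labelled replicates 1 and 3 closer to cellulose. Whether the medium or another difference in this library accounts for it was not tested. Total counts per library ran from 4607764 to 7081689 over the 12 libraries.

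Of 9088 genes tested, 2290 (25.2%) were called between the 3 labelled and the 3 WT libraries, 1304 higher (14.3%) and 986 lower (10.8%). Taken singly against the 3 WT libraries, labelled replicate 1 gave 1755 calls (19.3%), 11.4% of the genes higher and 7.87% lower. Labelled replicate 2 gave 3741 calls (41.2%), 20.6% higher and 20.5% lower, and labelled replicate 3 gave 2124 (23.4%), 11.7% in each direction. These single-library tests borrow the spread of the other groups and assume that the lone library varies as they do. Labelled replicates 1 and 3 together gave 2377 calls of 9136 genes (26.0%), 1273 higher (13.9%) and 1104 lower (12.1%). A gene is said to hold when it was at least 2-fold from the WT mean and beyond every WT library in each of the 3 labelled libraries. There were 574 such genes higher (6.32%) and 665 lower (7.32%), and 544 (5.99%) and 628 (6.91%) of them were also called between the groups. Significance in each of the 3 single-library tests was reached by 239 higher (2.63%) and 354 lower (3.9%) genes. Genes called in opposite directions numbered 128 (1.41%) between labelled replicates 2 and 3, 86 (0.946%) between 1 and 2, and 13 (0.143%) between 1 and 3. A further 412 genes (4.53%) were called higher and 335 (3.69%) lower in labelled replicate 3 and in neither of the others. The group counts rested on single WT libraries as well: leaving out WT replicate 2 gave 1122 calls in place of 2290, and leaving out WT replicate 3 gave 1260. With the spread taken from the 6 cellulose libraries alone, edgeR gave 537 calls of 8824 genes (6.09%), 192 higher (2.18%) and 345 lower (3.91%), 31.2% of the genes had an unadjusted p under 0.05, and 16 of the 36 named genes called between the groups kept their call. The counts of the gene groups in that fit are given beside each group as the 6-library count.

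**Figure D2:**
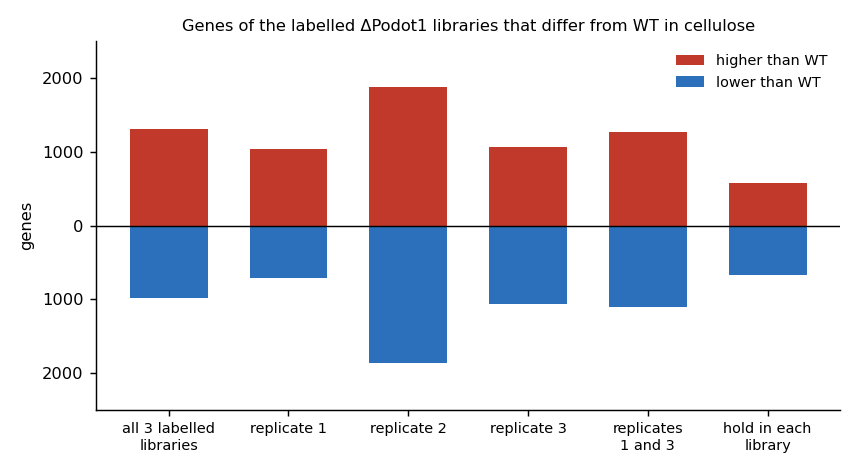
Number of genes higher (upward bars) and lower (downward bars) than WT in cellulose (y axis, genes) for the labelled libraries together, each alone, replicates 1 and 3 together, and for genes that hold in each library (x axis). Labelled replicate 2 has the longest bars, with 3741 calls, and 574 and 665 genes hold in each library.

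The gene groups below follow the study's annotation, and some genes are in more than 1 group. Of their 256 genes, 184 come from the study's table of genes changed in these same cellulose libraries, so the direction of those members is not independent evidence, and the counts are read beside the 14.3% of all genes called higher and 10.8% called lower. An unadjusted edgeR p under 0.05, given where a count was 0, was met by 42.6% of all genes for the group, 36.6% for labelled replicate 1 and 39.5% for labelled replicate 3. Where groups are said not to overlap, this is read beside 3470 of the 9088 genes tested. In those genes all 3 labelled libraries lay past all WT libraries by any amount in scaled counts, 1705 higher and 1765 lower. The median log2 fold change of all genes tested was 0.14 for the labelled group and 0.06, -0.07 and -0.07 for labelled replicates 1, 2 and 3.

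**Figure D3:**
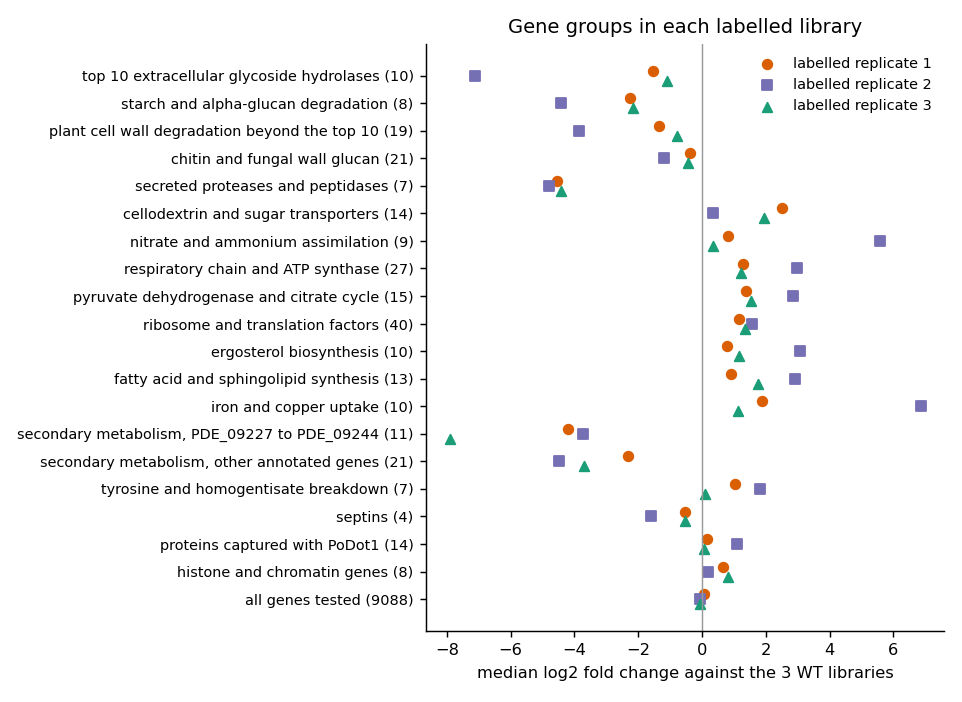
Median log2 fold change of each gene group (y axis, number of members in parentheses) in labelled replicates 1, 2 and 3 against the 3 WT libraries (x axis), with genes at 0 counts set at their bound. Starch degradation, the 10 glycoside hydrolases, proteases and secondary metabolism, among other groups, lie left of 0 for all 3 libraries. Starch degradation, the 10 glycoside hydrolases and nitrate assimilation, among others, lie farther from 0 for labelled replicate 2 than for labelled replicates 1 and 3.

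Most listed genes of starch degradation were lower in each labelled library. Of 8 members, 7 of them from the study's table, 6 were called lower between the groups, and 6, 7 and 5 were called lower in labelled replicates 1, 2 and 3. The 6-library count was 1. The 1 member outside the study's table was not called between the groups (log2 fold change 0.32). Its log2 fold change was -0.56, 1.31 and -0.74 for labelled replicates 1, 2 and 3. The choice of members thus weighs on the counts. The glucoamylase gene PDE_09417, whose enzyme releases glucose from the ends of starch chains, was read at 14780.0, 13575 and 13285 FPKM in WT, the highest level of the listed hydrolases, and at 353, 56.3 and 592 FPKM in labelled replicates 1, 2 and 3. All 3 labelled libraries lay far below all WT libraries (log2 fold change -5.42, SE 0.89, edgeR adjusted p = 0.0033). The α-amylase gene PDE_01201, whose enzyme cuts within starch chains, fell from 809, 1558 and 1456 FPKM to 67.2, 6.85 and 135 FPKM (log2 fold change -4.22, SE 0.84, edgeR adjusted p = 0.0065). The groups did not overlap for this gene either. In the 6-library fit both genes missed the threshold, with adjusted p of 0.069 for glucoamylase and 0.065 for PDE_01201 in edgeR at nearly the same log2 fold changes (-5.44 and -4.24). The α-glucosidase gene PDE_04151 was at 385, 488 and 697 FPKM in WT and 106, 13.1 and 79.5 in the labelled libraries (log2 fold change -3.02, SE 0.60, edgeR adjusted p = 0.0063), and PDE_04150, annotated as an α-glucoside transporter, at 97.97, 187 and 152 in WT and 47.4, 15.8 and 60.6 in the labelled libraries (log2 fold change -1.86, SE 0.44, edgeR adjusted p = 0.012). The starch-binding α-amylase gene PDE_01354 had 2943, 1624 and 7782 FPKM in WT and 957, 39.1 and 1277 in the labelled libraries, and missed the threshold (log2 fold change -2.47, SE 0.96, edgeR adjusted p = 0.072). Another α-amylase gene, PDE_04683, went the other way in labelled replicate 2 alone, with 14.6, 56.8 and 12.5 FPKM against 13.1, 17.8 and 31.4 in WT. In labelled replicate 3, the library without *Podot1* reads, glucoamylase was 4.56 lower on the log2 scale than in WT and PDE_01201 was 3.24 lower.

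The 10 extracellular glycoside hydrolase genes that the study followed did not move as a block. Of them, 6 came from the study's table of genes changed in these libraries. Of the 4 others 0 were called between the groups and 0 held. Their median log2 fold change was -0.52 for the group and -0.28, -6.64 and 0.47 for labelled replicates 1, 2 and 3. Between the groups 3 were called lower (0 in the 6-library fit, where 3 had an unadjusted p under 0.05, and 5 by DESeq2 over the 12 libraries), and 4 held lower in each library: glucoamylase and PDE_01201 above, the lytic polysaccharide monooxygenase gene *cel61A* (PDE_05633) and the β-glucosidase gene PDE_02736. In labelled replicate 2 all 10 were called lower, with a median log2 fold change of -7.13, against 4 in labelled replicate 1 (median -1.52) and 3 in labelled replicate 3 (median -1.09). Cel61A, which cuts crystalline cellulose by oxidation, was at 1094, 1943 and 1722 FPKM in WT and 361, 2.75 and 195 in the labelled libraries (log2 fold change -3.13, SE 1.05, edgeR adjusted p = 0.043). This call was lost when any one of WT replicates 1, 2 or 3 or labelled replicate 3 was left out, although the log2 fold change stayed between -3.34 and -2.97 in these fits. Without labelled replicate 2, 5 of the 10 genes were called lower. The β-glucosidase of PDE_02736, which turns cellobiose into glucose, was at 331, 538 and 198 FPKM in WT and 131, 17.97 and 149 in the labelled libraries (log2 fold change -1.89, SE 0.66, edgeR adjusted p = 0.051).

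The main cellulase genes were far lower in labelled replicate 2 than in the other labelled libraries. The cellobiohydrolase gene PDE_07945, whose enzyme releases cellobiose from chain ends, was at 12060.0, 7681 and 8612 FPKM in WT, and 3424, 57.7 and 7219 in the labelled libraries (log2 fold change -1.44, SE 1.04, edgeR adjusted p = 0.32). Labelled replicate 2 was far below the rest, labelled replicate 1 was lower than each WT library, and labelled replicate 3 was close to the lowest of them. Cel6A (PDE_07124), the cellobiohydrolase acting from the other chain end, was at 2185, 2406 and 2306 FPKM in WT and 1235, 27.3 and 3665 in the labelled libraries, with labelled replicate 3 above every WT library. The endoglucanase gene *cel5B* (PDE_09226) was at 972, 1348 and 1320.5 in WT and 930.1, 12.6 and 1620.5 in the labelled libraries, and here too labelled replicate 3 was the highest of all. Cel7B (PDE_07929), another endoglucanase, was lower in each, at 279.5, 18.2 and 802 FPKM against 1612, 1308 and 1553 (log2 fold change -2.05, SE 0.86, edgeR adjusted p = 0.092). It was called for labelled replicate 1 and not for labelled replicate 3. The xylanase gene *xyn10A* (PDE_08094) was at 97.2, 70.6 and 285 FPKM in WT and 145, 4.11 and 218 in the labelled libraries, and the chitinase gene *chi18A* (PDE_08122) at 2348, 3591 and 9915 in WT and 6359.5, 14.5 and 1479.9 in the labelled libraries. For both, labelled replicates 1 and 3 fell within or near the WT range.

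**Figure D4:**
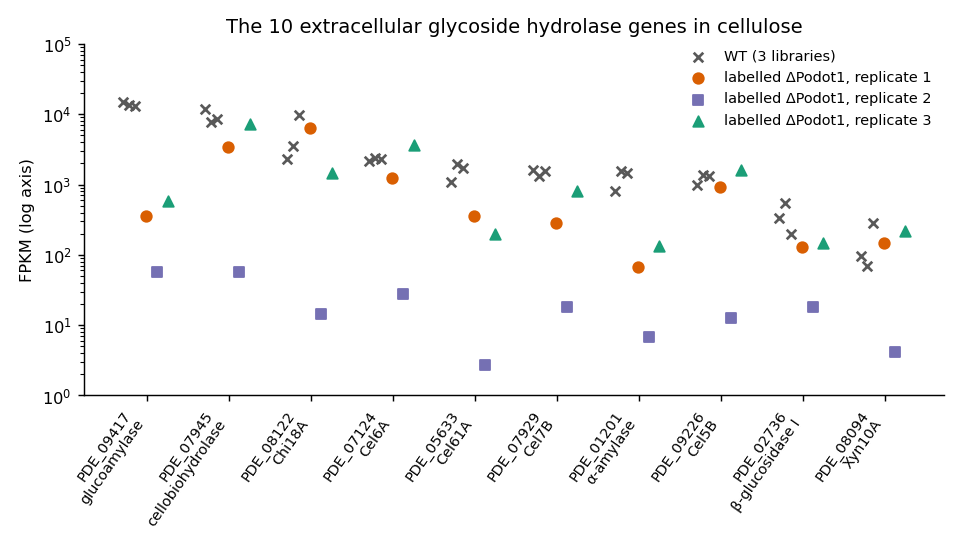
FPKM (y axis, log scale) of the 10 extracellular glycoside hydrolase genes (x axis) in the 3 WT libraries (crosses) and labelled replicates 1, 2 and 3. Labelled replicate 2 (squares) lies at 2.75 to 57.7 FPKM, below all WT libraries for each gene, whereas for Cel6A and Cel5B labelled replicate 3 (triangles) lies above them.

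Other genes for plant cell wall degradation changed in both directions. Of 19 members, 13 of them from the study's table, 5 were called higher and 7 lower between the groups, and 4 held higher and 8 held lower. Of the 6 others, 3 were called higher and 0 lower, and 3 held higher and 0 held lower (median log2 fold change 1.63). The lower calls thus all came from members of the study's table, and the choice of members weighs on them. Without WT replicate 2, 3 were called higher, and the 6-library counts were 2 higher and 4 lower. The xyloglucanase gene PDE_06439 was at 201, 163 and 63.5 FPKM in WT and 6.32, 10.9 and 8.46 in the labelled libraries (log2 fold change -4.15, SE 0.50, edgeR adjusted p = 8.5e-04), and the pectate lyase gene PDE_06068 at 51.3, 43.4 and 179.5 in WT and 3.96, 3.51 and 2.46 in the labelled libraries (log2 fold change -4.85, SE 0.58, edgeR adjusted p = 7.5e-04). Their groups did not overlap. The endoglucanase gene PDE_07928 was at 698, 1052 and 852 FPKM in WT and 266, 8.05 and 496 in the labelled libraries, also without overlap, and missed the threshold between the groups (log2 fold change -1.79, SE 0.88, edgeR adjusted p = 0.14). Singly it was called lower for labelled replicates 1 and 2 and not for labelled replicate 3, and it was called lower for labelled replicates 1 and 3 together (log2 fold change -1.22, edgeR adjusted p = 0.015). Another xyloglucanase gene, PDE_09014, rose from 57.5, 36.1 and 27.97 to 126, 159 and 133 FPKM (log2 fold change 1.69, SE 0.34, edgeR adjusted p = 0.0065). The cutinase gene PDE_04915 rose from 5.30, 5.97 and 2.69 to 19.8, 21.6 and 18.2 FPKM (log2 fold change 2.01, SE 0.37, edgeR adjusted p = 0.0052), and another one, PDE_07475, fell from 40.1, 80.01 and 349 to 15.7, 8.72 and 41.4 (log2 fold change -2.85, SE 0.85, edgeR adjusted p = 0.029). The arabinofuranosidase gene PDE_07897, whose enzyme trims arabinose from hemicellulose, depended on the library, with 89.9, 8.66 and 104 FPKM against 12.97, 10.2 and 6.84 in WT. Labelled replicates 1 and 3 were high and labelled replicate 2 was at the WT level.

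Sugar transporters were mostly higher in labelled replicates 1 and 3. Of 14 members, 11 of them from the study's table, 7 were called higher and 2 lower between the groups. In labelled replicates 1 and 3 together 11 were higher and 2 lower. The 6-library counts were 3 higher and 0 lower, with 2 lower at an unadjusted p under 0.05 in that fit. DESeq2 over the 12 libraries called 2 lower. The cellodextrin transporter gene PDE_00607, named as such in the study, was at 1108, 1000.4 and 1478 FPKM in WT and 4253, 26.3 and 5568 in the labelled libraries. It was thus higher in labelled replicates 1 and 3 and lower in labelled replicate 2 (single-library log2 fold changes 1.77, -5.66 and 2.21), and was not called between the groups. The transporter gene PDE_00753 did the same at a lower level, 867, 14.4 and 533 against 131, 170.1 and 186 FPKM. By contrast PDE_06397, a sugar transporter that held higher, was at 5.58, 5.47 and 17.7 FPKM in WT and 124, 190.5 and 92.5 in the labelled libraries (log2 fold change 3.74, SE 0.69, edgeR adjusted p = 0.0051). PDE_09377 was the most abundant of the list and lower in each library, at 1370.1, 319 and 1415 FPKM against 4982, 5375 and 5168 (log2 fold change -2.37, SE 0.60, edgeR adjusted p = 0.016), a call lost in the 6-library fit (adjusted p = 0.14).

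Among 7 genes of secreted proteases and peptidases, 5 of them from the study's table, all 7 were called lower between the groups. Of these, 3 held lower in each library. Without WT replicate 2, labelled replicate 1 or labelled replicate 3, 4 were called, and the 6-library count was 2. The carboxypeptidase gene PDE_06031 was at 399.8, 726 and 396 FPKM in WT and 6.82, 10.2 and 3.56 in the labelled libraries (log2 fold change -6.30, SE 0.45, edgeR adjusted p = 2.8e-05), and the aspergillopepsin gene PDE_07927 at 635, 850.0 and 1946 in WT and 68.5, 29.7 and 21.4 in the labelled libraries (log2 fold change -4.91, SE 0.59, edgeR adjusted p = 8.0e-04). For both the groups were clearly apart. For others 1 WT library stood apart. The deuterolysin gene PDE_07936 was at 97.7, 41.1 and 5194 FPKM in WT and 78.2, 45.02 and 82.3 in the labelled libraries, and its log2 fold change of -4.73 became -0.12 without WT replicate 3. The aspergillopepsin gene PDE_07344, at 439, 1417 and 6.98 FPKM in WT and 24.7, 24.98 and 14.9 in the labelled libraries, and the tripeptidyl-peptidase gene PDE_01983, at 66.8, 125 and 1.66 in WT and 2.80, 12.5 and 3.40 in the labelled libraries, were low in WT replicate 3 and overlapped with the labelled libraries there.

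A run of consecutive locus numbers, PDE_09227 to PDE_09244, was lower in each labelled library. All 18 loci were called lower between the groups. The bounds of the run match these calls, so the count of 18 follows from them and is a description. Of the 18 loci, 17 held lower in each library. The 14 from PDE_09231 to PDE_09244 formed the longest run of consecutive held loci among all genes (the next longest had 4). Of the 11 members with an annotation, all came from the study's table, and all 11 were called lower in each single-library test. The 6-library count was 7 of these 11. They include a polyketide synthase gene, PDE_09237, and genes annotated as reductases, a dehydratase and a methyltransferase, the kinds of enzyme that build fungal polyketides. Other members carry annotations of other kinds. These are a protein kinase (PDE_09227), a phosphoribosylformylglycinamidine synthase or aflatoxin efflux pump (PDE_09228), an RNA helicase (PDE_09233), an HSP20 family protein (PDE_09235) and a hydrolase (PDE_09238). The scytalone dehydratase gene PDE_09236, named for an enzyme of the melanin pathway of other fungi, was at 298, 675 and 1109.7 FPKM in WT and 5.41, 6.70 and 0 in the labelled libraries (log2 fold change -7.50, SE 0.97, edgeR adjusted p = 0.0012). Labelled replicate 3 had no count of it, at least 936.1-fold lower than the WT mean. The polyketide synthase gene PDE_09237 was at 31.8, 62.6 and 67.1 FPKM in WT and 15.3, 5.17 and 0.22 in the labelled libraries (log2 fold change -3.04, SE 0.90, edgeR adjusted p = 0.028), and PDE_09235 at 646, 989 and 208 in WT and 4.34, 6.03 and 0.62 in the labelled libraries (log2 fold change -7.48, SE 0.92, edgeR adjusted p = 8.5e-04).

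From PDE_09231 to PDE_09244 labelled replicate 3 was lower than labelled replicates 1 and 2. Its FPKM there was between 0 and 0.62, against 1.09 to 21.95 in the other labelled libraries. PDE_09238, PDE_09241, PDE_09242 and PDE_09243 had no count in it and were at least 107.8-, 106.0-, 551.2- and 240.0-fold lower than the WT mean. PDE_09232 was also at 0 FPKM in labelled replicate 3, against 46.9, 109.9 and 192.7 in WT, and no bound was computed for it. The median log2 fold change of the 11 annotated members was -4.20 for labelled replicate 1, -3.72 for labelled replicate 2 and -7.91 for labelled replicate 3 with genes at 0 counts set at their bound. The loci on either side were not called between the groups, which follows from where the run was bounded. PDE_09226, the *cel5B* gene, lies next to it by number and was close to WT in labelled replicates 1 and 3, and PDE_09245, at 3.54, 13.5 and 11.6 FPKM in WT and 10.7, 9.63 and 0.47 in the labelled libraries, overlapped with WT in labelled replicates 1 and 2. Locus numbers follow the deposited annotation, and genome positions were not used here.

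**Figure D5:**
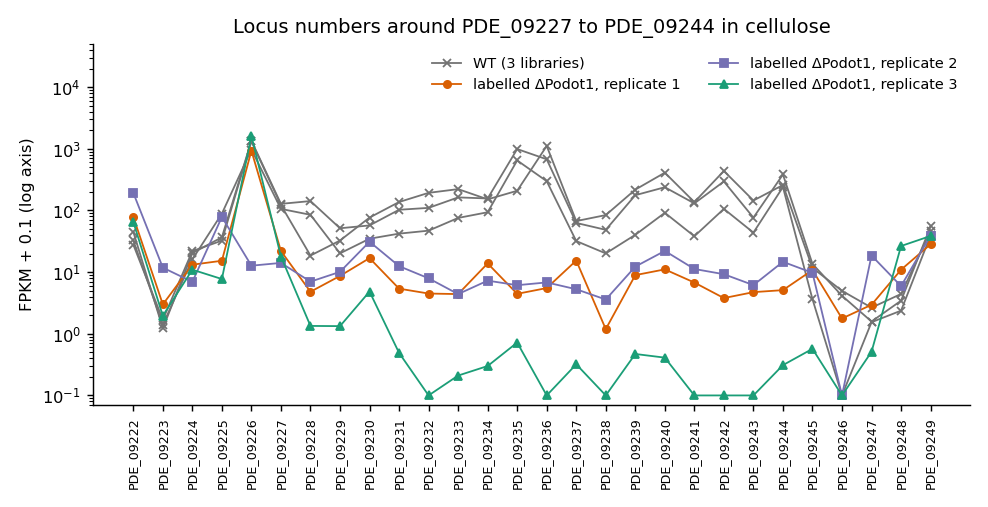
FPKM + 0.1 (y axis, log scale) of consecutive locus numbers around PDE_09227 to PDE_09244 (x axis) in the 3 WT cellulose libraries (grey crosses) and labelled replicates 1, 2 and 3. From PDE_09231 to PDE_09244 the 3 labelled libraries lie under the WT lines, and labelled replicate 3 (triangles) lies at 0 to 0.62 FPKM.

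Other genes annotated for secondary metabolism were lower too. Of 21 members, 18 from the study's table, 16 were called lower and 0 higher between the groups, with 14, 17 and 19 lower in labelled replicates 1, 2 and 3. In labelled replicate 2, 1 was called higher. Without WT replicate 2, 10 were called lower between the groups, and the 6-library count was 8. At an unadjusted p under 0.05 in edgeR, 0 members were higher between the groups, as in DESeq2 at its adjusted p. The cytochrome P450 gene PDE_06972, annotated as a fumitremorgin C monooxygenase, was at 412, 494 and 343 FPKM in WT and 12.3, 10.8 and 7.03 in the labelled libraries (log2 fold change -5.45, SE 0.41, edgeR adjusted p = 2.9e-05), and PDE_08660, annotated as an averantin hydroxylase, at 408, 289 and 144 in WT and 27.8, 13.9 and 12.9 in the labelled libraries (log2 fold change -4.03, SE 0.47, edgeR adjusted p = 7.5e-04). The neighbours PDE_07205 and PDE_07206, annotated as a geranylgeranyl diphosphate synthase and a hydroxylase, fell from 76.5, 98.8 and 113 to 9.21, 3.70 and 1.45 FPKM and from 54.9, 67.5 and 87.01 to 2.27, 1.66 and 0.24 FPKM. For these 4 genes no labelled library overlapped with WT, which in the same direction was so for 1765 of the 9088 genes tested. Of the 3 members that did not come from the study's table, none was called between the groups, whereas 1 was called higher and 1 lower in labelled replicate 2 and 1 lower in labelled replicate 3.

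Genes of respiration were higher in the labelled libraries, most of all in labelled replicate 2. From the study's table came 26 of the 27 respiratory genes and 13 of the 15 citrate cycle genes below, so the choice of members weighs on the counts. Of the others, the 1 respiratory gene was called higher between the groups and the 2 citrate cycle genes were not called. Of 27 genes of the respiratory chain and ATP synthase, 23 were called higher between the groups and 18 held, with 26 called in labelled replicate 2 and 8 and 5 in labelled replicates 1 and 3. The cytochrome b subunit gene of succinate dehydrogenase, PDE_09828, was at 9.38, 7.29 and 5.47 FPKM in WT and 77.7, 332 and 67.5 in the labelled libraries (log2 fold change 4.31, SE 0.71, edgeR adjusted p = 0.0033). It was called in each library on its own, as was the ATP synthase gene PDE_01144, at 5.57, 6.11 and 5.87 FPKM in WT and 57.5, 155 and 13.8 in the labelled libraries (log2 fold change 3.56, SE 0.63, edgeR adjusted p = 0.0041). Of 15 genes of pyruvate dehydrogenase and the citrate cycle, 12 were called higher and 10 held. PDE_09828 is in both lists, so their counts are not independent. Aconitase (PDE_08183) was at 245, 152 and 88.1 FPKM in WT and 576, 558 and 780.2 in the labelled libraries (log2 fold change 1.90, SE 0.47, edgeR adjusted p = 0.014), and malate dehydrogenase (PDE_02150) at 180.4, 163 and 57.7 in WT and 284, 1413 and 266 in the labelled libraries (log2 fold change 2.16, SE 0.69, edgeR adjusted p = 0.037), a call lost without labelled replicate 2 and without any 1 of WT replicates 1, 2 or 3. Respiratory genes called higher fell to 12 without WT replicate 2 and 9 without WT replicate 3, and those of the citrate cycle to 5 without either. The 6-library counts were 2 of the 27 respiratory genes and 2 of the 15 genes of the citrate cycle.

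Of 40 ribosomal protein and translation factor genes, 24 were called higher and 1 lower between the groups, and 23 and 1 held. Their median log2 fold change was 1.38 for the group. The count was 20 of the 22 members from the study's table and 4 of the 18 others, so the choice of members weighs on it. Without WT replicate 3, 7 members were called higher, and the 6-library counts were 4 higher and 1 lower. Ribosomal protein L40 (PDE_04754) was at 14.6, 14.7 and 7.05 FPKM in WT and 81.8, 70.4 and 131 in the labelled libraries (log2 fold change 2.89, SE 0.38, edgeR adjusted p = 0.0012), with all labelled libraries above all WT libraries. The abundant elongation factor 1-α gene PDE_02596 was at 3539.7, 3488 and 2380.0 in WT and 3089, 4309.9 and 3532 FPKM in the labelled libraries and was not called, and PDE_09012, annotated as another elongation factor 1-α, fell from 367, 747 and 548 to 67.6, 13.4 and 50.4 FPKM (log2 fold change -3.71, SE 0.57, edgeR adjusted p = 0.0026).

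Several groups were highest in labelled replicate 2. From the study's table came 8 of the 9 nitrate and ammonium genes and all 10 iron and copper genes below. Of 9 genes of nitrate and ammonium assimilation, 7 were called higher between the groups, but 0 were called in labelled replicate 1, 8 in labelled replicate 2, and 2 higher and 1 lower in labelled replicate 3, and none held. In labelled replicate 1, 2 members passed an unadjusted p under 0.05 in edgeR, and DESeq2 called 0. Without labelled replicate 2, or without WT replicates 1, 2 or 3, the group comparison called 1, 1, 0 and 0 of these genes higher. The 6-library count was 0, with 7 at an unadjusted p under 0.05 in that fit. DESeq2 over the 12 libraries called 5. Nitrate reductase (PDE_00369), which turns nitrate into nitrite, was at 2.76, 1.06 and 10.3 FPKM in WT and 8.02, 710.3 and 2.46 in the labelled libraries, and its log2 fold change of 5.53 became 0.11 without labelled replicate 2. Nitrite reductase (PDE_00370), the next enzyme, was at 48.5, 35.8 and 40.9 in WT and 21.1, 2219 and 6.47 in the labelled libraries, lower than WT in labelled replicates 1 and 3. Of 10 genes of iron and copper uptake, 8 were called higher between the groups, with 5, 10 and 1 in labelled replicates 1, 2 and 3. The group count was 4 without WT replicate 1, 3 without WT replicate 2 and 5 without labelled replicate 2. The 6-library count was 0, with 7 at an unadjusted p under 0.05 in that fit. DESeq2 over the 12 libraries called 5. The copper transporter gene PDE_05328 was at 3.46, 3.15 and 8.08 FPKM in WT and 18.6, 1189 and 10.8 in the labelled libraries (log2 fold change 6.22, SE 1.54, edgeR adjusted p = 0.015). This call was lost without WT replicate 1 or 2, and the log2 fold change was 1.54 without labelled replicate 2. The siderophore transporter gene PDE_06096 was at 2.70, 2.62 and 18.2 in WT and 36.9, 1204 and 9.80 in the labelled libraries (log2 fold change 5.60, SE 1.55, edgeR adjusted p = 0.022), a call lost without labelled replicate 2 and without WT replicate 1 or 2.

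Lipid genes were also led by labelled replicate 2. From the study's table came 9 of the 10 ergosterol genes and 12 of the 13 fatty acid and sphingolipid genes below. Of 10 genes of ergosterol synthesis, 7 were called higher and 1 lower between the groups, with 1, 8 and 3 higher in labelled replicates 1, 2 and 3. Without WT replicate 2, WT replicate 3 or labelled replicate 2, 2 were called higher. The 6-library counts were 0 in either direction, with 7 higher and 1 lower at an unadjusted p under 0.05 in that fit. DESeq2 over the 12 libraries called 8 higher and 1 lower. Methylsterol monooxygenase (PDE_05808) was at 83.1, 59.1 and 45.4 FPKM in WT and 119, 3158 and 221 in the labelled libraries (log2 fold change 4.07, SE 1.07, edgeR adjusted p = 0.018), a call lost without labelled replicate 2, WT replicate 2 or WT replicate 3. Of 13 genes of fatty acid and sphingolipid synthesis, 9 were called higher, with 2, 10 and 6 by library, and 3 without WT replicate 2 and 4 without WT replicate 3, and the 6-library count was 2. Stearoyl-CoA desaturase (PDE_02205), which makes the first double bond of fatty acids, was at 121, 145 and 74.6 FPKM in WT and 193, 2190.2 and 307 in the labelled libraries. In this list 2 genes were highest in labelled replicate 3: the ceramide synthase gene PDE_03874, at 20.1, 13.7 and 18.3 FPKM in WT and 43.4, 45.8 and 187 in the labelled libraries (log2 fold change 2.36, SE 0.54, edgeR adjusted p = 0.0104), and PDE_01101, at 66.3, 26.6 and 20.4 in WT and 75.4, 28.4 and 334 FPKM in the labelled libraries.

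Smaller groups were mixed. Of 21 genes of chitin and fungal wall glucan, 8 of them from the study's table, 3 were called higher and 5 lower. Of the 13 others, 1 was called higher and 1 lower. Without WT replicate 2 none of the 21 was higher. The 6-library counts were 0 higher, with 3 at an unadjusted p under 0.05 in that fit, and 2 lower. DESeq2 over the 12 libraries called 4 higher. The gene PDE_03112, annotated both as a glucan endo-1,3-β-glucosidase and as a putative exo-β-1,3-glucanase, was at 387, 119 and 56.7 FPKM in WT and 1504, 928 and 2371 in the labelled libraries (log2 fold change 3.02, SE 0.77, edgeR adjusted p = 0.016), a call lost without WT replicate 2 and in the 6-library fit, and PDE_02004, a β-1,6-glucanase gene, at 68.5, 114 and 40.2 in WT and 7.56, 9.29 and 2.10 in the labelled libraries (log2 fold change -3.66, SE 0.52, edgeR adjusted p = 0.0017). The β-1,3-glucanase gene PDE_03291 was not called between the groups but was nearly absent in labelled replicates 1 and 3, at 6.33, 160.1 and 0.99 FPKM against 174, 227 and 357 in WT. Of 7 genes of tyrosine breakdown, 3 of them from the study's table, 3 were called higher and 1 lower. Of the 4 others, 1 was called higher and 0 lower. Of all 7, 1 was called higher without WT replicate 1 or 3, and the 6-library counts were 1 in each direction. Of the 2 genes for 4-hydroxyphenylpyruvate dioxygenase, the enzyme that makes homogentisate, PDE_09761 fell from 370.5, 761 and 410.2 to 12.1, 36.1 and 3.77 FPKM (log2 fold change -5.01, SE 0.76, edgeR adjusted p = 0.0023) and PDE_08904 rose from 14.5, 31.4 and 10.4 to 183, 429 and 95.04 (log2 fold change 3.54, SE 0.60, edgeR adjusted p = 0.0036). Both held, in opposite directions.

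The list held 4 septin genes, all from the study's table of genes changed in glucose, and other septin genes of this fungus were not looked up. Septins form the rings and collars that mark sites of septation and growth. All 4 were called lower in labelled replicate 2, 0 in labelled replicate 1 and 0 in labelled replicate 3, where edgeR's unadjusted p was under 0.05 for 1 and 0 of the 4 and DESeq2 called 1 and 0. Between the groups 1 was called lower, and none was without any 1 of WT replicates 1 or 2 or labelled replicates 1 or 2, in the 6-library fit or under limma. Septin 7 (PDE_09187) was at 242, 198 and 157 FPKM in WT and 170.1, 59.9 and 148 in the labelled libraries. Of 14 genes for proteins that the study captured with PoDot1, 4 were called higher and 0 lower, with 0, 6 and 1 higher in labelled replicates 1, 2 and 3. From the study's table of genes changed in cellulose came 4 of the 14. Of the 10 others, 1 was called higher and 0 lower between the groups, so the choice of members weighs on the count. Between the groups 0 of the 14 were lower at an unadjusted p under 0.05 in edgeR or by DESeq2, and DESeq2 called 6 higher. In labelled replicate 1, 3 members were higher at an unadjusted p under 0.05 and DESeq2 called 1. The group count of 4 became 1, 1, 0 and 2 without WT replicates 1, 2, 3 and labelled replicate 2, and 0 in the 6-library fit, where 5 were higher at an unadjusted p under 0.05. The NADP-dependent glutamate dehydrogenase gene PDE_06117 was at 24.6, 11.3 and 11.4 FPKM in WT and 18.3, 1162 and 15.1 in the labelled libraries, high in labelled replicate 2 alone. Of 8 histone and chromatin genes, 5 of them from the study's table, 3 were called higher and 1 lower. The 6-library counts were 0 higher and 1 lower, with 3 higher at an unadjusted p under 0.05 in that fit. DESeq2 over the 12 libraries called 4 higher. Histone H3 (PDE_00233) was at 447, 563 and 269 FPKM in WT and 1540.5, 961 and 1317 in the labelled libraries (log2 fold change 1.51, SE 0.47, edgeR adjusted p = 0.035), a call lost without any 1 of WT replicates 1, 2 or 3 or of labelled replicates 1 or 3. RTF1 (PDE_01860), a subunit of the polymerase-associated Paf1 complex in yeast, was at 39.8, 40.4 and 39.9 FPKM in WT and 97.9, 90.8 and 215 in the labelled libraries (log2 fold change 1.69, SE 0.35, edgeR adjusted p = 0.0077).

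The genes with the steepest changes among those that hold were mostly without an annotation in the study's tables and are given by number. Their selection used these values, so they are a description. PDE_00509 was among the most abundant genes in WT, at 8508, 9616 and 6843 FPKM, and was at 63.9, 119 and 67.2 FPKM in the labelled libraries (log2 fold change -6.73, SE 0.66, edgeR adjusted p = 2.3e-04). PDE_00961 was even in both groups, at 523, 618 and 561 in WT and 8.63, 7.45 and 10.3 FPKM in the labelled libraries (log2 fold change -6.08, SE 0.32, edgeR adjusted p = 2.7e-06), and PDE_00770 was at 897, 1536 and 2532 in WT and 20.9, 13.7 and 12.7 FPKM in the labelled libraries. The groups were separated by more than the spread of their libraries for all 3. PDE_07655 was uneven in WT, at 1358, 4699.7 and 9.53 FPKM, and was at 4.66, 5.90 and 3.12 in the labelled libraries. PDE_06813 was likewise at 1019.9, 1776 and 90.6 FPKM in WT and 9.58, 10.6 and 6.94 in the labelled libraries. Among the higher genes, PDE_05929 rose from 13.4, 17.01 and 14.8 to 247, 1602 and 354 FPKM (log2 fold change 5.48, SE 0.65, edgeR adjusted p = 7.5e-04) and PDE_06122 from 1.62, 2.97 and 2.31 to 33.5, 29.8 and 23.7 (log2 fold change 3.57, SE 0.33, edgeR adjusted p = 1.7e-04). PDE_06899 rose from 0.28, 0.24 and 25.2 to 1457, 293 and 916 FPKM, with WT replicate 3 well above the other WT libraries. In the 6-library fit PDE_06899, PDE_03478 and PDE_07655 missed the threshold. PDE_09666 was at 57.2, 219.8 and 96.8 FPKM in the labelled libraries, PDE_03478 at 69.6, 38.2 and 46.5 and PDE_08753 at 24.2, 8.41 and 8.03, against at most 12.74 in WT.

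In labelled replicate 3, the library without *Podot1* reads, the largest increases after PDE_06899 were in PDE_02109, PDE_05150, PDE_01653 and PDE_01680, which have no annotation in the study's tables. PDE_02109 was at 2.05, 1.29 and 3.06 FPKM in WT and 99.4, 2.31 and 124 in the labelled libraries, so it was shared with labelled replicate 1 and not with labelled replicate 2. PDE_05150 was at 3.33, 1.58 and 4.64 in WT and 15.4, 25.9 and 150.0 in the labelled libraries, PDE_01653 at 3.96, 3.77 and 17.2 in WT and 54.7, 23.7 and 329.8 in the labelled libraries, and PDE_01680 at 1.91, 2.46 and 4.61 in WT and 43.1, 12.9 and 112 FPKM in the labelled libraries. These 3 were highest in labelled replicate 3. The 5 genes with the lowest fitted log2 fold changes were *Podot1* itself and 4 loci of the run above, all without a count. Their fitted values depend on the prior count, and the bounds are given above. Labelled replicate 3 had 12 genes without a count that had at least 10 counts in each WT library, against 1 and 2 in labelled replicates 1 and 2. In the other direction, 27 and 39 genes had at least 10 counts in labelled replicates 1 and 2 and none in the WT cellulose libraries, against 1 gene in labelled replicate 3. Labelled replicates 1 and 2 listed 9774 and 9766 genes, labelled replicate 3 listed 9480, and the WT cellulose libraries 9478 to 9520.

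The glucose libraries, where the *Podot1* reads follow the label, give a comparison with separate controls. There 803 of 9088 genes (8.84%) were called, 439 higher (4.83%) and 364 lower (4.01%). Of the 574 genes that held higher in cellulose, 100 (17.4%) were also called higher in glucose, which is 22.8% of the glucose calls. Of the 665 that held lower, 138 (20.8%) were also called lower in glucose, which is 37.9% of those calls. Of the genes called in labelled replicate 3, 135 of 1064 higher and 178 of 1060 lower genes were called the same way in glucose. The difference in strain effect between the media was called for 153 genes (1.68%), and for 741 without labelled replicate 2. The genes that held lower had a median length of 1110 bases and those that held higher 1330, against 1420 for all genes tested, with median levels of 39.3, 32.5 and 30.9 FPKM over the 12 libraries. Shorter runs of 4 consecutive locus numbers held higher at PDE_02639 to PDE_02642 and PDE_07724 to PDE_07727, and lower at PDE_07932 to PDE_07935.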

How the data were processed

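Members and gene lists were chosen with earlier results of these data known. The authors deposited 1 table per library with an estimated count for each gene, not normalized, and an FPKM value, which corrects for gene length and mapped reads. HISAT and Bowtie2 are named for mapping, and the counting program is not given in the sources used here. The sample labels speak of a tag protocol and the study of BGISEQ-500 RNA-seq. Genes not listed were set to 0. Counts of gene families may share reads.

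The rounded counts entered edgeR 4.0.16 (R 4.3.3). After filterByExpr and TMM scaling, 9088 of 9909 genes were fitted by quasi-likelihood, with a mean for each of the 4 groups and the spread shared by the 12 libraries. The group comparison used the 3 labelled libraries, and the single-library tests gave each labelled cellulose library a mean of its own. A call needed a Benjamini-Hochberg adjusted p under 0.05 and a 2-fold change. Each SE was derived from the fold change and its F statistic. Levels are FPKM, and bounds for genes at 0 use 3 counts per library. Single values had a two-sided exact permutation test. The edgeR step was checked on simulated data with less spread between replicates than these libraries show and with no library unlike its group. That check therefore cannot show how the calls behave in these libraries.

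Alternatives tried were the 6 cellulose libraries alone, leaving out each library, a replicate block, other filters and scalings, DESeq2 1.42.0, and limma 3.58.1 after adding 1, 0.1 or 10 to the FPKM and taking log2. Named genes were *Podot1*, the 10 glycoside hydrolase genes, the 2 most abundant members of each list, the 8 higher and 8 lower held genes whose smallest change over the labelled libraries was largest, and the 5 higher and 5 lower genes of labelled replicate 3 with the largest change, the last 2 sets at a mean of at least 10 FPKM. Other members named were chosen after their values were seen. Gene names come from the study's tables, since the reference table at hand belongs to another strain. Replicates are biological per the study, and intervals and bounds cover counting error only.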

Additional observations from a re-analysis of the deposited data

Results flagged for a closer look

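For 10 of the 67 genes named, the difference between labelled and WT libraries in cellulose was itself different from that in glucose (edgeR interaction test over the 12 libraries, adjusted p under 0.05). Values are the difference of the 2 log2 fold changes, cellulose minus glucose, and the cellulose libraries include the 2 that held *Podot1* reads. Glucoamylase (PDE_09417) was at -4.94, from -5.42 in cellulose and -0.48 in glucose (edgeR adjusted p = 0.048). The protease gene PDE_07927 was at -5.49 (-4.91 and 0.58, edgeR adjusted p = 0.0068) and the carboxypeptidase gene PDE_06031 at -5.17 (-6.30 and -1.14, edgeR adjusted p = 0.0015). Fumarylacetoacetase (PDE_08907), the last enzyme of tyrosine breakdown, was higher in both media and more so in glucose, at -2.78 (1.66 and 4.44, edgeR adjusted p = 0.050). PDE_06122 was at 3.29 (3.57 and 0.28, edgeR adjusted p = 0.0062). PDE_00509 was at -3.87 (-6.73 and -2.87, edgeR adjusted p = 0.032), PDE_00770 at -3.39 (-6.78 and -3.39, edgeR adjusted p = 0.047) and PDE_00961 at -2.86 (-6.08 and -3.22, edgeR adjusted p = 0.0068), each lower in both media. PDE_07655 was at -8.34 (-8.88 and -0.54, edgeR adjusted p = 0.049) and PDE_06813 at -7.04 (-6.82 and 0.21, edgeR adjusted p = 0.018), both uneven among the WT cellulose libraries.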

How the results depend on the processing

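The group comparison gave 2290 calls under edgeR and 2693 under DESeq2. It gave 1285 (594 higher) under limma on log2(FPKM + 10) and 537 (192 higher, 345 lower) when the spread came from the 6 cellulose libraries alone. Without 1 library it gave 1122 to 2645 calls (511 to 1628 higher, 611 to 1104 lower), the lowest without WT replicate 2. Labelled replicate 1 alone gave 1147 to 1878 (720 to 1111 higher, 427 to 767 lower), labelled replicate 2 gave 3454 to 3847 (1770 to 1962 and 1684 to 1885) and labelled replicate 3 gave 1405 to 2223 (709 to 1097 and 696 to 1126). Labelled replicates 1 and 3 together gave 1709 to 2229 (844 to 1131 higher, 865 to 1098 lower), and 749 higher with only the 5 libraries compared. Genes that held numbered 1178 to 1954 (519 to 1080 higher, 659 to 955 lower), and 3470 (1705 and 1765) when any distance past the WT libraries was accepted. The interaction gave 741 calls (340 and 401) without labelled replicate 2. The cause of these shifts was not tested.

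*Podot1* ranged from -0.97 to 0.42 on the log2 scale without 1 library, 0.42 without labelled replicate 3, and was -11.13 for labelled replicate 3 alone. Of 999 comparisons of 59 named genes with their alternatives, 827 kept direction and side of the threshold, 104 lost the call, 44 gained it and 24 changed sign, and for the 10 genes named for labelled replicate 3 all 39 kept both. Without 1 library at a time the log2 fold change ran from -1.09 to 0.48 for PDE_08094, -1.44 to 0.044 for PDE_09226, -1.95 to 0.067 for PDE_07124, -0.53 to 1.87 for PDE_03711, -0.23 to 0.70 for PDE_06441, -1.65 to 4.58 for PDE_00370, -0.056 to 0.24 for PDE_02596 and -0.92 to 0.91 for PDE_09149. The sign changed without labelled replicate 2 for the first 6, without WT replicate 3 for PDE_08094 (0.48), PDE_06441 and PDE_02596, and without WT replicate 1 or labelled replicate 3 for PDE_09149. With labelled replicate 3 alone it was 0.53 for PDE_08094, 0.41 for PDE_09226, 0.66 for PDE_07124, -0.30 for PDE_03711, -2.70 for PDE_00370, -0.93 for PDE_00369 and 0.16 for PDE_06826. For PDE_09149 it was 0.013 under limma with each pseudocount. For PDE_00607 limma gave -0.45, -0.46 and -0.32 with pseudocounts of 1, 0.1 and 10.

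The deviations of same-numbered WT and labelled libraries in cellulose had correlations of -0.14, 0.058 and 0.012. Those of differently numbered libraries ran from -0.094 to 0.14. With 3 libraries per group these values cannot show whether same-numbered samples shared a batch, and this was not tested. A fit with the replicate block gave 1880 calls between the groups and 79 for the interaction (20 and 59).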
